A study of Mus musculus with 4 samples.

Results

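Ribosome biogenesis and nucleolar genes encode the machinery that transcribes, modifies and cuts ribosomal RNA and assembles it with ribosomal proteins. The 42 genes described here were chosen by symbol as typical MYC-activated genes of the nucleolus, and all 42 were found among the 41214 genes of the count table. They were measured by RNA-seq of unstimulated B220+ splenocytes, taken from the spleen by magnetic selection for a surface marker of B cells. Mice of the MIZ-1 WT group carried the wild type protein, while MIZ-1 △POZ mice lacked the POZ domain in B cells, where Cre expressed from the *Cd79a* locus (*Mb1 Cre*) removes loxP-flanked sequence of *Zbtb17*, the gene of MIZ-1. The mice were young adults on a C57BL/6 background, with 2 biological replicates per genotype, and whether the MIZ-1 WT mice carried Cre is not given in the sources used here. The truncated protein keeps its zinc fingers, and the counts cover all exons of a gene together.

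In the nucleolus, RNA polymerase I copies the ribosomal DNA into a long precursor. Small nucleolar ribonucleoproteins (snoRNPs) guide the methylation and pseudouridylation of this precursor, the small subunit processome folds and cuts its first part, and a separate set of factors builds the large subunit. MYC is known to activate many of these genes through E-boxes in their promoters, and MIZ-1 is known as a partner through which MYC represses other genes. Resting B cells keep small nucleoli, which grow when the cells are activated.

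The depth on genes was 44452007 counts in MIZ-1 WT replicate 1, 43026814 in MIZ-1 WT replicate 2, 46387209 in MIZ-1 △POZ replicate 1 and 43214303 in MIZ-1 △POZ replicate 2. The quasi-likelihood test of edgeR was applied to the 14554 genes that reached 10 counts in at least 2 libraries, and adjusted p stands for its p-value after Benjamini-Hochberg adjustment over all of these genes, with a threshold of 0.05. Log2 fold changes are MIZ-1 △POZ over MIZ-1 WT, each with its standard error (SE). CPM are counts scaled to a common library total with TMM factors, given as mean ± SD with n = 2. *Zbtb17* itself had 2087 and 1946 counts from MIZ-1 WT libraries against 1774 and 1669 from MIZ-1 △POZ libraries. Its log2 fold change was -0.32 (SE 0.06, edgeR adjusted p = 0.00857), with both MIZ-1 △POZ libraries below both MIZ-1 WT libraries, and the call was lost without MIZ-1 WT replicate 1 (-0.30, edgeR adjusted p = 0.0666).

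Of the 42 genes, MIZ-1 △POZ had 12 higher and 3 lower than MIZ-1 WT, and 27 did not pass the threshold. Among all tested genes 21.1% were higher and 18.9% were lower, 40% in either direction, so the share of ribosome biogenesis genes called was near that of all genes. The higher ones were *Npm1*, *Rrp1b*, *Utp4*, *Mrto4*, *Taf1d*, *Nop2*, *Pa2g4*, *Gnl3*, *Nhp2*, *Wdr43*, *Nop58* and *Nop9*, and the lower ones were *Ddx10*, *Nop56* and *Ubtf*. The median log2 fold change of the 42 genes was 0.10, with quartiles at 0.02 and 0.22, beside a median of -0.01 and quartiles at -0.23 and 0.33 over all tested genes. Differences were small: values ran from -0.32 to 0.48, and none of the 42 reached the absolute log2 fold change of 0.6 that the study used as a limit. With an unadjusted p under 0.05, 20.3% of all tested genes passed it; the study also describes Benjamini-Hochberg correction by DESeq2, so its own p limit may be on an adjusted p, and none of the 42 passes on either reading. The 95% interval lay within this limit for 41 of the 42 genes, the exception being *Rrp1b*, and for 7721 of the 14554 tested genes. The median half-width of the interval was 0.14 for the 42 genes against 0.24 for all tested genes. In 26 genes both MIZ-1 △POZ libraries were above both MIZ-1 WT libraries in CPM and in 6 both were below, beside 37.2% and 37.6% of all tested genes. These counts depended on the scaling and on single libraries. With library totals alone 18 genes were higher and 1 was lower, where 3605 of all genes were higher and 2036 lower in place of 3076 and 2746, and when genes below a mean of 30 RPM (reads scaled like CPM but without the TMM factor) were dropped, 22 of 38 were higher and 1 was lower, with 45.37% of all genes called in either direction. Without MIZ-1 WT replicate 1, 2 genes were higher by edgeR and none was lower, with 8 and 2 at an unadjusted p under 0.05, and without MIZ-1 WT replicate 2, 4 were higher and 1 was lower. The share of all genes called in either direction also fell, to 15.47% and 19.75%. Only *Npm1* and *Rrp1b* of the 15 called genes passed the threshold under every alternative that gives a test, other than the study's own limits.

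**Figure D1:**
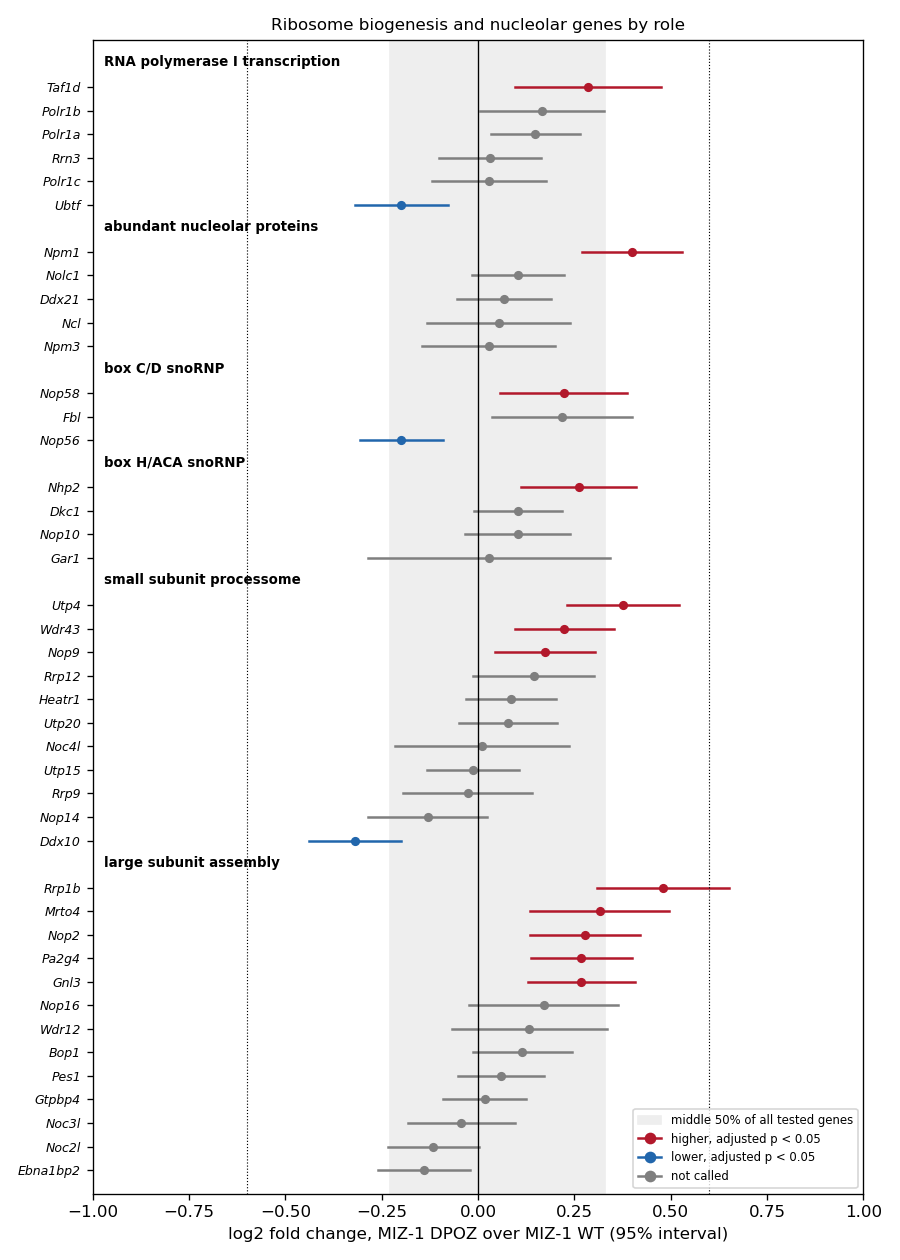
Log2 fold change of each of the 42 genes, MIZ-1 △POZ over MIZ-1 WT, on the horizontal axis, with the genes grouped by role on the vertical axis. Points are edgeR estimates from 2 libraries per genotype, lines are 95% intervals, red and blue mark the 12 higher and 3 lower genes, the grey band spans the quartiles of all tested genes, and dotted lines mark 0.6 in either direction. All points lie between the dotted lines.

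Together the 42 genes took 0.404% and 0.400% of the counts on genes in the MIZ-1 WT libraries and 0.463% and 0.447% in the MIZ-1 △POZ libraries. *Npm1* alone made up 14.6% and 14.5% of these counts from MIZ-1 WT libraries against 17.9% and 17.4% from MIZ-1 △POZ libraries. Without *Npm1*, the summed level of the others was 3517 and 3498 CPM in the MIZ-1 WT libraries against 3704 and 3633 CPM in the MIZ-1 △POZ libraries, so both MIZ-1 △POZ libraries were above both MIZ-1 WT libraries with and without it. Levels of the 42 genes were in the upper part of the range, with a median percentile of 78.4 among the tested genes. The replicates differed by a median of 0.04 on the log2 scale in MIZ-1 WT against 0.08 in MIZ-1 △POZ, and the MIZ-1 △POZ pair was the more distant one in 32 of the 42 genes. This was not particular to them. Over tested genes with at least 10 counts in a pair, the chi-square per gene between replicates was 21.9 in MIZ-1 △POZ against 9.87 in MIZ-1 WT. The widest gap within a genotype was 0.22, for *Wdr12* in MIZ-1 △POZ.

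Of the genes for RNA polymerase I transcription, *Taf1d* was higher, *Ubtf* was lower, and *Polr1a*, *Polr1b*, *Polr1c* and *Rrn3* did not pass the threshold. *Ubtf* (chr11:102304560-102319742, GRCm38) encodes UBF, which binds along active ribosomal DNA and keeps it open. It had 11603 and 10533 counts from MIZ-1 WT libraries against 10640 and 9939 from MIZ-1 △POZ libraries, or 258 ± 10.9 and 225 ± 2.05 CPM. Scaled to library size the groups did not overlap, and the log2 fold change of *Ubtf* was -0.20 (SE 0.05, edgeR adjusted p = 0.0241). This call was lost with library totals alone (-0.14) and with the 30 RPM filter (-0.12). It was also lost with replicate number as a block (-0.20) and without MIZ-1 WT replicate 1 (-0.16) or replicate 2 (-0.24). *Taf1d* (chr9:15306214-15316991) encodes a subunit of SL1, the factor that brings the polymerase to the promoter. It had 3331 and 3619 counts from MIZ-1 WT libraries against 4903 and 4169 from MIZ-1 △POZ libraries, so both MIZ-1 △POZ libraries were high. The log2 fold change of *Taf1d* was 0.29 (SE 0.08, edgeR adjusted p = 0.0311). Its call was lost with the replicate block (0.29), without MIZ-1 WT replicate 1 (0.20) and without MIZ-1 △POZ replicate 1 (0.24). *Taf1d* hosts small nucleolar RNA genes within its exons, so reads of these genes may not be told apart. On the opposite strand it shares 235 exon bases with *4931406C07Rik*, which was higher (0.93, edgeR adjusted p = 0.0103), and 77 with *Cep295*, which was lower (-0.23, edgeR adjusted p = 0.0355) and had 4439, 4222, 3877 and 3987 counts in the 4 libraries.

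*Polr1a* and *Polr1b* encode the large catalytic subunits of RNA polymerase I, and *Polr1c* a subunit it shares with RNA polymerase III. *Polr1c*, which had the second highest level per exon length of its group, had 2444 and 2414 counts from MIZ-1 WT libraries against 2860 and 2441 from MIZ-1 △POZ libraries. Its groups overlapped in CPM, with a log2 fold change of 0.03 (SE 0.06, edgeR adjusted p = 0.735). *Polr1a* had 93.5 ± 2.03 CPM in MIZ-1 WT against 104 ± 1.56 in MIZ-1 △POZ, with a log2 fold change of 0.15 that just missed the threshold (SE 0.05, edgeR adjusted p = 0.0511). It passed with DESeq2's size factors (0.15), library totals alone (0.21), upper quartile factors (0.17) and the 30 RPM filter (0.22). It also passed without immunoglobulin genes (0.15) or MIZ-1 △POZ replicate 1 (0.17). It did not pass with DESeq2's Wald test, no filter, the replicate block or any other library left out. *Polr1b* had a log2 fold change of 0.17, from 66.8 to 74.99 CPM. *Rrn3*, the initiation factor that links growth signals to the polymerase, was at 100.2 and 102 CPM, with a log2 fold change of 0.03.

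Of the abundant nucleolar proteins, *Npm1* was higher, and *Ncl*, *Npm3*, *Nolc1* and *Ddx21* did not pass the threshold. *Npm1* (ENSMUSG00000057113, chr11:33152287-33163206, minus strand) encodes nucleophosmin, a histone and ribosome chaperone that shuttles between nucleolus and cytoplasm. It had 26231 and 24884 counts from MIZ-1 WT libraries against 38508 and 33543 from MIZ-1 △POZ libraries, the highest counts of the 42 genes in every library. This corresponded to 597 ± 6.55 CPM in MIZ-1 WT against 787 ± 31.7 CPM in MIZ-1 △POZ, and both MIZ-1 △POZ libraries were above both MIZ-1 WT libraries. The log2 fold change was 0.40 (SE 0.05, edgeR adjusted p = 0.00373), or 1.32-fold. Per kilobase of exon, *Npm1* was at 224 CPM in MIZ-1 WT, above *Nop10* at 68.0, which was second among the 42 genes. Reads that *Npm1* shares with processed copies elsewhere in the genome would not have been uniquely aligned.

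*Ddx21* encodes an RNA helicase of the nucleolus. It had 9896 and 9296 counts from MIZ-1 WT libraries against 10835 and 10610 from MIZ-1 △POZ libraries, with a log2 fold change of 0.07 (SE 0.05, edgeR adjusted p = 0.325). *Ncl* encodes nucleolin, which binds the ribosomal RNA precursor. It was at 181 ± 9.16 CPM in MIZ-1 WT against 188 ± 17.1 CPM in MIZ-1 △POZ, the groups overlapped, and its log2 fold change of 0.05 was within the spread of the replicates. *Npm3*, a relative of *Npm1*, was at 38.2 and 38.9 CPM with a log2 fold change of 0.03. *Nolc1*, a chaperone of snoRNPs, had a log2 fold change of 0.10, from 66.3 to 71.3 CPM.

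Among the genes for core proteins of the box C/D snoRNP, which methylates ribosomal RNA, calls went in opposite directions. *Nop58* was higher, *Nop56* was lower, and *Fbl*, the methyltransferase fibrillarin, did not pass the threshold. *Nop56* (chr2:130274430-130279313) had 7997 and 7563 counts from MIZ-1 WT libraries against 7616 and 6864 from MIZ-1 △POZ libraries, or 182 ± 2.39 and 158 ± 2.56 CPM. Its log2 fold change was -0.20 (SE 0.04, edgeR adjusted p = 0.0169), with both MIZ-1 △POZ libraries below both MIZ-1 WT libraries in CPM. The call of *Nop56* was lost with library totals alone (-0.14) and with the 30 RPM filter (-0.12). It was also lost without MIZ-1 WT replicate 1 (-0.19) or replicate 2 (-0.215). *Nop58* (chr1:59684971-59719044) had 6410 and 6142 counts from MIZ-1 WT libraries against 8633 and 7042 from MIZ-1 △POZ libraries. Its log2 fold change was 0.22 (SE 0.07, edgeR adjusted p = 0.0445). The call of *Nop58* was lost without MIZ-1 △POZ replicate 1, the higher library (0.14). It was also lost with the replicate block and without either MIZ-1 WT library (each 0.22). *Nop56* and *Nop58*, and likewise *Gnl3* and *Ncl*, hold small nucleolar RNA genes within annotated exons, and *Pa2g4* holds a microRNA gene, so reads of these may not be told apart from those of the host. *Fbl* was at 20.8 ± 0.117 CPM in MIZ-1 WT against 24.2 ± 1.32 CPM in MIZ-1 △POZ, with a log2 fold change of 0.22 (SE 0.07, edgeR adjusted p = 0.0625).

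The box H/ACA snoRNP guides pseudouridylation, and its proteins also bind the RNA of telomerase. Of its genes, *Nhp2* was higher, and *Dkc1*, *Nop10* and *Gar1* did not pass the threshold. *Nhp2* (chr11:51619735-51623714) had 1557 and 1417 counts from MIZ-1 WT libraries against 1982 and 1823 from MIZ-1 △POZ libraries, with no overlap of the groups. The log2 fold change of *Nhp2* was 0.26 (SE 0.06, edgeR adjusted p = 0.0201). *Nop10*, the smallest protein of the complex, had 3269 and 3187 counts from MIZ-1 WT libraries against 3980 and 3433 from MIZ-1 △POZ libraries, with a log2 fold change of 0.10 (SE 0.05, edgeR adjusted p = 0.186). *Dkc1*, the pseudouridine synthase dyskerin, was at 107 and 115 CPM with a log2 fold change of 0.10. *Dkc1* is on chromosome X, and sex-linked genes separated the genotypes. *Gar1* had the lowest level of the 42 genes, 5.42 and 5.53 CPM, and a log2 fold change of 0.03 with a 95% interval from -0.29 to 0.34.

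Of the 11 genes of the small subunit processome, *Utp4*, *Wdr43* and *Nop9* were higher, *Ddx10* was lower and 7 did not pass the threshold. *Utp4* (ENSMUSG00000041438, chr8:106893636-106923088) encodes a protein of the subcomplex that first binds the precursor. It had 1315 and 1266 counts from MIZ-1 WT libraries against 1835 and 1742 from MIZ-1 △POZ libraries, or 30.1 ± 0.0170 and 39.1 ± 0.803 CPM. The log2 fold change of *Utp4* was 0.38 (SE 0.06, edgeR adjusted p = 0.00606), and the groups were far apart relative to the replicates. *Ddx10* (ENSMUSG00000053289, chr9:53098635-53248053, minus strand) encodes an RNA helicase. It had 3735 and 3535 counts from MIZ-1 WT libraries against 3266 and 2959 from MIZ-1 △POZ libraries, the lower counts being in the MIZ-1 △POZ libraries although one of them was the deepest. The log2 fold change of *Ddx10* was -0.32 (SE 0.05, edgeR adjusted p = 0.00546), the lowest of the 42 genes, and it was negative under every scaling tried.

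*Wdr43*, also a protein of the early subcomplex, had the highest level per exon length among the processome genes. It had 7370 and 7347 counts from MIZ-1 WT libraries against 9858 and 8522 from MIZ-1 △POZ libraries, with a log2 fold change of 0.22 (SE 0.05, edgeR adjusted p = 0.0203). *Heatr1* was second in level per exon length over the mean of the 4 libraries, at 24.62 CPM per kilobase beside 24.43 for *Ddx10*, which was second in MIZ-1 WT alone. *Heatr1* had 8289 and 7733 counts from MIZ-1 WT libraries against 9645 and 8534 from MIZ-1 △POZ libraries. For *Heatr1* the log2 fold change was 0.09 (SE 0.05, edgeR adjusted p = 0.193), and it shares 155 exon bases with *Lgals8* on the opposite strand, which was lower (-0.17, edgeR adjusted p = 0.0359) and had 6730, 6362, 6625 and 5788 counts in the 4 libraries. *Nop9* had 2003 and 1980 counts from MIZ-1 WT libraries against 2510 and 2290 from MIZ-1 △POZ libraries, with a log2 fold change of 0.17 (SE 0.05, edgeR adjusted p = 0.0453). It was the closest to the threshold of the 15 called genes, and DESeq2's Wald test gave it an adjusted p of 0.103. *Nop9* shares 1136 exon bases with *Cideb* on the opposite strand, which had 0, 1, 2 and 1 counts in the 4 libraries. Of the others, *Rrp12* had a log2 fold change of 0.14 at 33.3 and 36.8 CPM, and *Utp20* of 0.08 at 99.9 and 105 CPM. *Noc4l* was at 21.9 and 22.1 CPM (0.01), *Utp15* at 74.2 and 73.5 CPM (-0.01), *Rrp9* at 39.8 and 39.0 CPM (-0.03) and *Nop14* at 37.2 and 34.0 CPM (-0.13), where the value in brackets is the log2 fold change.

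Of the 13 genes of large subunit assembly, 5 were higher, 0 were lower by edgeR and 8 did not pass the threshold. At an unadjusted p under 0.05 *Ebna1bp2* was lower, and DESeq2 did not call it. *Rrp1b* (ENSMUSG00000058392, chr17:32036100-32062865) encodes a nucleolar protein related to a yeast processing factor. It had 1309 and 1186 counts from MIZ-1 WT libraries against 2000 and 1721 from MIZ-1 △POZ libraries, or 29.1 ± 1.27 and 40.6 ± 1.99 CPM. The log2 fold change of *Rrp1b* was 0.48 (SE 0.07, edgeR adjusted p = 0.00493), or 1.40-fold, the largest among the 42 genes. *Mrto4*, which holds the place of the stalk protein in the immature large subunit, had 1131 and 1164 counts from MIZ-1 WT libraries against 1645 and 1412 from MIZ-1 △POZ libraries. For *Mrto4* the log2 fold change was 0.32 (SE 0.07, edgeR adjusted p = 0.0198), with no overlap of the groups.

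*Nop2* encodes a methyltransferase of the large ribosomal RNA. It had 3372 and 3343 counts from MIZ-1 WT libraries against 4698 and 4011 from MIZ-1 △POZ libraries, with a log2 fold change of 0.28 (SE 0.06, edgeR adjusted p = 0.0142). *Pa2g4*, which encodes the growth-regulated protein EBP1, had 3118 and 2920 counts from MIZ-1 WT libraries against 3933 and 3822 from MIZ-1 △POZ libraries. For *Pa2g4* the log2 fold change was 0.27 (SE 0.05, edgeR adjusted p = 0.0125). *Gnl3* encodes nucleostemin, a GTP-binding protein of dividing cells. It had 2828 and 2859 counts from MIZ-1 WT libraries against 3908 and 3415 from MIZ-1 △POZ libraries, with a log2 fold change of 0.27 (SE 0.06, edgeR adjusted p = 0.0150). For *Nop2*, *Pa2g4* and *Gnl3*, both MIZ-1 △POZ libraries were above both MIZ-1 WT libraries in CPM.

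The members of the PeBoW complex, *Pes1*, *Bop1* and *Wdr12*, which is needed to process the RNA of the large subunit, did not pass the threshold. *Pes1* had 4799 and 4737 counts from MIZ-1 WT libraries against 5599 and 5024 from MIZ-1 △POZ libraries, with a log2 fold change of 0.06 (SE 0.05, edgeR adjusted p = 0.338). *Bop1* was at 60.4 and 65.4 CPM and *Wdr12* at 69.9 and 76.6 CPM, with log2 fold changes of 0.11 and 0.13. For *Wdr12* this value was 0.03 without MIZ-1 △POZ replicate 1 and 0.26 without MIZ-1 △POZ replicate 2. *Noc2l* had the highest level per exon length in the group, 46.1 CPM per kilobase in MIZ-1 WT against 42.6 in MIZ-1 △POZ. It had 5707 and 5624 counts from MIZ-1 WT libraries against 5949 and 5233 from MIZ-1 △POZ libraries, with a log2 fold change of -0.12 (SE 0.05, edgeR adjusted p = 0.105). *Noc2l* shares 598 exon bases with *Samd11* on the opposite strand, which had at most 15 counts in a library. Its partner *Noc3l* was at 53.0 and 51.4 CPM with a log2 fold change of -0.04. *Ebna1bp2* was at 87.7 ± 0.935 and 79.6 ± 1.98 CPM, with a log2 fold change of -0.14 (SE 0.05, edgeR adjusted p = 0.066). *Nop16* was at 26.0 and 29.3 CPM (0.17) and *Gtpbp4* at 131 and 133 CPM (0.02), with the log2 fold change in brackets. With 1 library left out, that of *Nop16* ran from 0.096 to 0.27 and that of *Gtpbp4* from 0.009 to 0.055.

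**Figure D2:**
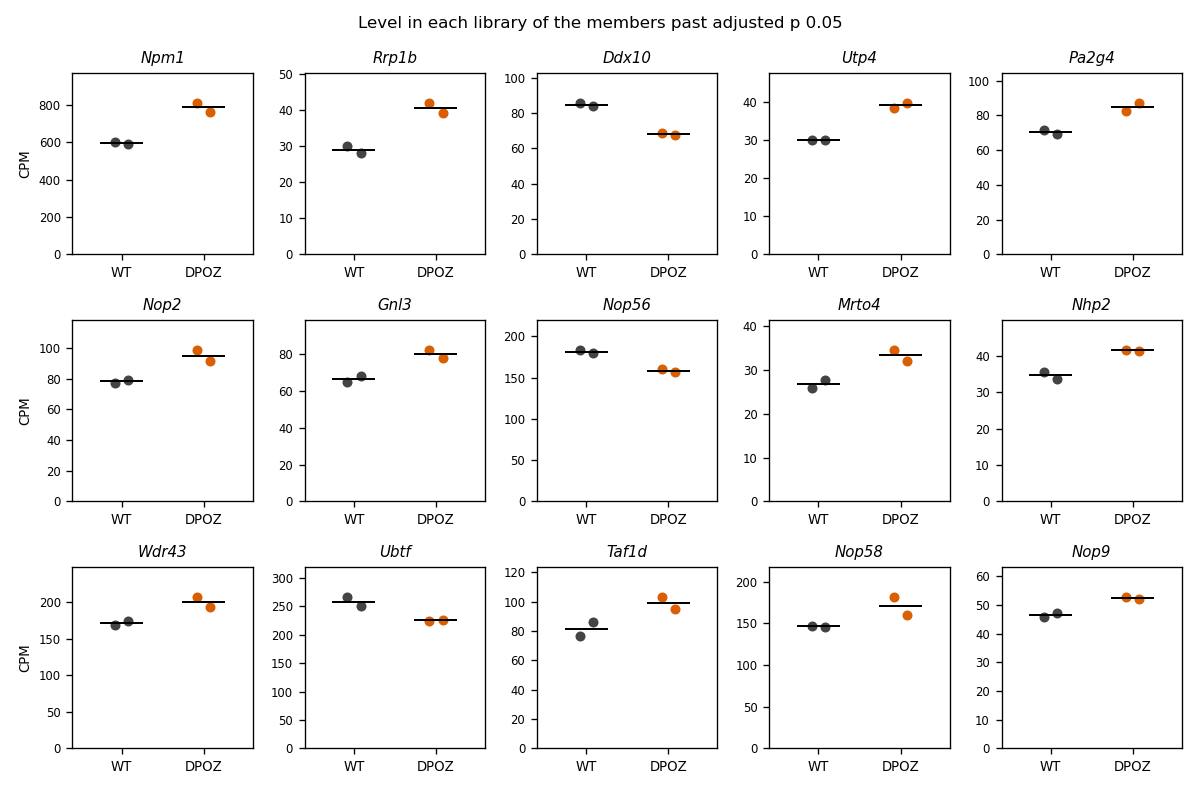
CPM (vertical axis, from 0) of the 15 genes with an adjusted p under 0.05 in each of the 4 libraries, with MIZ-1 WT in grey and MIZ-1 △POZ in orange on the horizontal axis. Points are single libraries and bars are means of 2; in each panel the points of the genotypes do not overlap, and *Ddx10*, *Nop56* and *Ubtf* are the panels with lower points in MIZ-1 △POZ.

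Promoter sequences were compared because the members are described as MYC-activated genes, and MYC with MAX binds the E-box CACGTG. RefSeq windows of 300 bases, from 250 before to 50 after the gene start (GRCm38.p6), were matched by symbol for 38 of the 42 genes. The letters CACGTG, which read the same on both strands, were in the windows of 6 genes, *Utp4*, *Nop2*, *Wdr43*, *Utp20*, *Pes1* and *Rrn3*. This was 15.8% of the matched genes, beside 8.09% of all 27025 genes with a window and 11.7% of the tested genes among them. Of the 6 genes, *Utp4*, *Nop2* and *Wdr43* were higher in MIZ-1 △POZ and the others did not pass the threshold. Beside this, 12 of the 42 genes and 21.1% of all tested genes were higher. The calls of *Utp4*, *Nop2* and *Wdr43* did not hold under every alternative. Without MIZ-1 WT replicate 1 their log2 fold changes were 0.38, 0.26 and 0.20. Whether the E-box goes with the calls was not tested. GGGCGG, the letters of a GC box, was found on either strand in 30 of the 38 genes, beside 66.8% of the tested genes, and CCAAT in 11 of the 38 genes, beside 42.8% of the tested genes. None of the motifs contains another, and a match is a description of the letters in the window. The windows of the 4 genes with CACGTG and the smallest p are shown to place the E-box, in capitals, relative to the gene start. They lie at chr8:106893390-106893689 on the plus strand (*Utp4*), chr6:125131633-125131932 on the plus strand (*Nop2*), chr17:71615965-71616264 on the plus strand (*Wdr43*) and chr10:88826765-88827064 on the minus strand (*Utp20*).
Utp4: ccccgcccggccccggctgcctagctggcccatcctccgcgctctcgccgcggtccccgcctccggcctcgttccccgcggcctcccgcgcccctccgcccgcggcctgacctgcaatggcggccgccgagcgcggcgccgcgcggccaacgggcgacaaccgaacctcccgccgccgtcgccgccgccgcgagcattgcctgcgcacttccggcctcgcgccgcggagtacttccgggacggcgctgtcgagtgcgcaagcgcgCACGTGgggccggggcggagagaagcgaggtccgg
Nop2: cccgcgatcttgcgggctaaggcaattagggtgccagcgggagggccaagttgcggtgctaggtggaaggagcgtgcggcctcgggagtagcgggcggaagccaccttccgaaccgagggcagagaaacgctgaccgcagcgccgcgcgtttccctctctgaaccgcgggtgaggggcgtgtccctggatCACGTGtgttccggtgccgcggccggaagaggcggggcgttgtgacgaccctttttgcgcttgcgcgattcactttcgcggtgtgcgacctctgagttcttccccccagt
Wdr43: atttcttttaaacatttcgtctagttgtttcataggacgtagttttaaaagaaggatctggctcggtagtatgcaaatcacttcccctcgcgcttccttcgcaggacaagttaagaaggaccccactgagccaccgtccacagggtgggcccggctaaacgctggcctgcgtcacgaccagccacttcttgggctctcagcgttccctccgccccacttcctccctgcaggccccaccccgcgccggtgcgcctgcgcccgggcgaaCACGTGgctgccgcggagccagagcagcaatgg
Utp20: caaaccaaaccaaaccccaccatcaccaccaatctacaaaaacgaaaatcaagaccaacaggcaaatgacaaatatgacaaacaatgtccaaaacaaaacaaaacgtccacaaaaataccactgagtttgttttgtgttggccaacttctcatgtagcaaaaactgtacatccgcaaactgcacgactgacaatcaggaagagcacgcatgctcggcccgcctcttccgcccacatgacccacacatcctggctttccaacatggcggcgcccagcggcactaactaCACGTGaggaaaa
The E-box began at position -60 before the gene start in *Nop2* and at positions 16, 18 and 38 from the gene start in *Utp4*, *Wdr43* and *Utp20*.

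Other genes of ribosome biogenesis, outside the 42, were taken from a list of 121, of which 119 were matched and tested. Of these, 12 were higher and 17 were lower, and the median log2 fold change was -0.002 with quartiles at -0.14 and 0.10. The balance of directions turned with the scaling, with 21 higher and 6 lower with library totals alone, 15 and 13 with upper quartile factors, and 25 and 4 of 93 with the 30 RPM filter. Without MIZ-1 WT replicate 1, and likewise without MIZ-1 WT replicate 2, 4 were lower and none was higher by edgeR, with 6 higher and 8 lower, and 10 higher and 13 lower, at an unadjusted p under 0.05. By role, 1 gene was higher and 1 was lower of 10 for RNA polymerase I transcription, 2 and 3 of 13 for snoRNP proteins and assembly, 4 and 5 of 37 in the small subunit processome, and 5 and 5 of 47 in large subunit assembly, while 3 of 12 exosome genes were lower. The higher genes with the smallest p were *Nol9*, a kinase of precursor RNA (0.25, SE 0.05, edgeR adjusted p = 0.0107), *Tsr1* (0.24, SE 0.05, edgeR adjusted p = 0.0110) and *Rcl1* (0.35, SE 0.07, edgeR adjusted p = 0.0118), with log2 fold changes in brackets. *Znhit3*, a factor of box C/D snoRNP assembly, had 611 and 627 counts from MIZ-1 WT libraries against 270 and 286 from MIZ-1 △POZ libraries, and its log2 fold change was -1.25 (SE 0.11, edgeR adjusted p = 0.00160). *Emg1* followed at -0.31 (SE 0.04, edgeR adjusted p = 0.00435) and *Skiv2l2* (*Mtrex*), the helicase of the nuclear exosome, at -0.39 (SE 0.06, edgeR adjusted p = 0.00459).

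*Myc* had 1228 and 984 counts from MIZ-1 WT libraries against 1675 and 1733 from MIZ-1 △POZ libraries, with a log2 fold change of 0.53 (SE 0.11, edgeR adjusted p = 0.0139), both MIZ-1 △POZ libraries being above, and without MIZ-1 WT replicate 2 the call was lost (0.40, edgeR adjusted p = 0.0630). Of the 12 tested genes of the MYC network, 2 were higher and 5 were lower, *Zbtb17* among them, and with library totals alone 3 were higher and 3 were lower. Without MIZ-1 WT replicate 1, 2 were higher and 1 was lower, and without MIZ-1 WT replicate 2, 1 and 2. *Mxd3* was the other higher gene (1.65, SE 0.20, edgeR adjusted p = 0.00321). *Mlxip* (-0.51), *Mnt* (-0.60), *Mlx* (-0.21) and *Mga* (-0.17) were lower on the log2 scale, and *Max*, the obligate partner of MYC, was at 54.1 and 53.7 CPM with a log2 fold change of -0.01, which turned to 0.05 with library totals alone. The calls of *Mlx* and *Mga* were lost with library totals alone, with upper quartile factors and with the 30 RPM filter. Both were also lost with the replicate block and without any 1 of 3 libraries. The call of *Mlx* was lost with DESeq2's size factors and its Wald test as well, and that of *Mnt* without either MIZ-1 WT library. Of 25 other MYC-activated genes, 15 were higher and 1 was lower, beside 21.1% and 18.9% of all tested genes. This list was chosen with earlier results of these data known. Its median log2 fold change was 0.25, with a range from -0.32 to 1.96. *Mthfd2* (0.80) had the smallest p of the higher genes. The lower gene was *Tfrc* (-0.28), whose call was lost without either MIZ-1 WT library. Without MIZ-1 WT replicates 1 and 2 in turn, 9 and 7 of the 25 were higher. Of 79 cytosolic ribosomal protein genes, 27 were higher and 1 was lower with a median of 0.12, led by *Rplp0* (0.58) and *Rpl22* (-1.02), and with library totals alone 43 were higher and with the 30 RPM filter 45. Without MIZ-1 WT replicates 1 and 2 in turn, 3 and 6 of the 79 were higher. Many ribosomal protein genes have processed copies that share reads with them, so their values are uncertain.

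Other features of the libraries moved with the genotype. The share of reads assigned to no counted feature was 27.18% and 25.48% in MIZ-1 WT against 21.65% and 21.13% in MIZ-1 △POZ. All 18 proliferation genes were higher in MIZ-1 △POZ, with a median log2 fold change of 1.43, summed levels of 836 and 824 CPM in MIZ-1 WT against 1933 and 1706 CPM in MIZ-1 △POZ, *Top2a* as the most abundant gene and *Mki67* (2.13) as the one with the smallest p. With the 30 RPM filter 10 of the 18 were tested, all higher, and the median was 0.79. All 12 macrophage markers were higher (median 2.00), with summed levels of 843 and 1131 CPM against 5091 and 3186 CPM and *Vcam1* as the most abundant. Plasma cell markers were higher in 5 of 6 (median 1.01), at 734 and 1059 CPM against 2477 and 2310 CPM with *Jchain* the most abundant, and with the 30 RPM filter 3 were tested with a median of 0.62. Of 6 germinal center markers 5 were higher and *Bcl6*, the most abundant, was lower, at 145 and 147 CPM against 254 and 212 CPM in sum. Follicular B cell markers were also listed, and their values are not given here. Marginal zone markers were higher in 6 of 6 (median 0.66), at 2721 and 2708 CPM against 3335 and 3575 CPM with *Cr2* the most abundant, B-1 cell markers in 4 of 5 (1 of 5 without either MIZ-1 WT library and 2 of 5 without MIZ-1 △POZ replicate 1), and conventional dendritic cell markers in 3 of 5. Pan-B cell genes were lower in 8 of 10 (median -0.25), at 13470 and 13800 CPM against 11170 and 11540 CPM with *Ms4a1* the most abundant; 5 were lower with library totals alone or without MIZ-1 △POZ replicate 1 and 3 without either MIZ-1 WT library. The pan-B cell list includes *Cd79a*, from whose locus Cre is expressed in MIZ-1 △POZ mice. Log2 fold changes in this list ran from -1.44 to -0.10. The study reports *Cd79a* but not *Cd79b* as downregulated, and the part of the Cre allele in the summed level was not tested. Of other lists, 1 of 10 T cell, 2 of 5 NK cell, 2 of 6 neutrophil, 1 of 8 erythroid and 1 of 3 megakaryocyte markers tested were higher, 1 of 5 plasmacytoid dendritic cell and 1 of 2 stroma and endothelium markers were lower, and *Gp1bb* was at 0 in all libraries. Erythroid markers were high in MIZ-1 △POZ replicate 2, with a summed level of 111.9 CPM beside 41.27 in MIZ-1 △POZ replicate 1 and 48.59 and 59.99 in MIZ-1 WT, and 7 of 8 were higher without MIZ-1 △POZ replicate 1, while without MIZ-1 △POZ replicate 2, 1 was higher and 1 was lower. Some or all calls in the NK cell, neutrophil, megakaryocyte, plasmacytoid dendritic cell and stroma and endothelium lists were lost without 1 of the libraries. The part of these differences in the values of the ribosome biogenesis genes was not tested, and in bulk RNA fewer cells of a type and less RNA per cell cannot be told apart.

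Sex-linked genes also separated the genotypes. *Xist* had 49 and 60 counts from MIZ-1 WT libraries against 38145 and 40838 from MIZ-1 △POZ libraries, and the Y-linked *Ddx3y* had 15840 and 14896 counts from MIZ-1 WT libraries against 680 and 622 from MIZ-1 △POZ libraries. The Y-linked counts in MIZ-1 △POZ were low but not 0. Sex and genotype cannot be told apart in any comparison here, which touches the X-linked *Dkc1* most directly. Of the 42 genes, 18 share exon bases with a gene on the opposite strand, 7 of them among the 15 called genes, and 8 called genes have no such overlap.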

How the data were processed

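RNA-seq libraries of B220+ splenocytes were ribosomal RNA depleted and stranded, with paired-end sequencing. The authors trimmed reads with Trimmomatic, mapped them to GRCm38 (mm10) with TopHat2 (version 2.1.0 in the submitters' processing notes) and counted them per Ensembl gene with HTSeq. They deposited raw counts, neither normalized nor pooled. The strand setting and the Ensembl release are not given in the sources used here, so values of genes overlapping on opposite strands are uncertain. Shares of unassigned reads are of all counts in the table, those on genes and those on other lines together. Whether a read with several alignments was counted there more than once was not checked. Lines of the table that name no gene entered neither library sizes nor tests. They held reads that HTSeq assigned to no feature, which can include intronic reads, with shares of 27.18% and 25.48% in MIZ-1 WT against 21.65% and 21.13% in MIZ-1 △POZ, and non-unique alignments, with shares between 42.8% and 44.1%.

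From these counts, edgeR version 4.0.16 in R version 4.3.3 gave TMM factors, CPM and quasi-likelihood tests with genotype as the only term, Benjamini-Hochberg adjusted over the 14554 tested genes. The common dispersion was 0.00848. Of 41214 genes, 40254 had a GENCODE symbol. Levels per length used all annotated exons of a gene.

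Every member was named in its role group. Counts, log2 fold change, SE and adjusted p were given for members past the threshold and for the 2 members per role with the highest level per exon length. In other ribosome biogenesis genes 3 genes per direction were named by smallest p, in the MYC network those past the threshold with *Myc*, *Max* and *Zbtb17*, and in the other lists 1 gene per direction by smallest p; marker genes named for their abundance were chosen after their values were seen. Members and lists were chosen with earlier results of these data known. *Riok2*, *Exosc6* and *Ighd* were not matched and not used here.

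Alternatives were DESeq2's size factors in edgeR, library totals alone, upper quartile factors, DESeq2's Wald test (version 1.42.0), no filter, a mean of at least 30 RPM, immunoglobulin genes left out, a replicate block, leaving out each library, the study's limits (read with an unadjusted p), and removal of a trend on GC content and exon length.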

Additional observations from a re-analysis of the deposited data

Results flagged for a closer look

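Reads that were not assigned to a gene are outside all comparisons. Among them, ambiguous reads made up a mean of 0.301% in MIZ-1 △POZ and 0.284% in MIZ-1 WT, and reads without a unique alignment 43.9% and 43.2%. Both were picked out because each MIZ-1 △POZ library was above each MIZ-1 WT library, and neither difference was tested. Reads assigned to no feature separated the genotypes more widely and the other way, with 27.18% and 25.48% in MIZ-1 WT against 21.65% and 21.13% in MIZ-1 △POZ, also not tested. Groups of 2 libraries are too small to test for an outlying sample.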

How the results depend on the processing

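With 2 libraries per genotype and small differences, counts of called genes and their balance of directions depended on the processing. Larger moves of the ribosome biogenesis genes and of all genes are given here, with some of those of single genes. Other lists also moved, and some of their values stand beside their counts. DESeq2's size factors in edgeR, and likewise leaving out immunoglobulin genes, added the call of *Polr1a*. No filter on counts ended that of *Nop9*. With library totals alone the median log2 fold change of the 42 genes was 0.16 and 1 was lower, and the other ribosome biogenesis genes had 21 higher, 6 lower and a median of 0.058; this setting shifted all tested genes by a median of 0.06. Upper quartile factors gave medians of 0.13 and 0.022. Without genes below a mean of 30 RPM, 22 were higher, 1 was lower and the median was 0.18, the other ribosome biogenesis genes had 25 higher, 4 lower and a median of 0.088, and all genes had 1464 higher and 1282 lower. By construction this setting tests fewer genes, 6052, and its TMM factors come from them alone, which shifted the shared genes by a median of 0.08; for library totals and upper quartile factors the cause was not tested. Under the limits of the study, read with an unadjusted p, 0 of the 42 genes were higher and 0 lower, 1 other ribosome biogenesis gene was higher and 1 lower, and 2188 of all genes were higher and 772 lower; this setting changes both the fold limit and the adjustment of p. DESeq2's Wald test gave 11 lower among the other ribosome biogenesis genes, and removal of the GC and length trend a median of -0.032 for them; the cause was not tested.

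Deviations of same-numbered libraries from their group means correlated at -0.07. With 2 libraries per genotype these deviations mirror each other, so both replicate numbers give 1 value. It cannot settle whether replicate numbers pair the samples. A replicate block moved the calls among the 42 genes to 9 higher and 2 lower, those of all genes to 2633 and 2099, and those of the other ribosome biogenesis genes to 5 and 6. Among the 42 genes, the calls of *Nop58*, *Nop9*, *Taf1d* and *Ubtf* were lost with this block.

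Leaving out 1 library in turn leaves a lone library that is assumed to vary like the other genotype. It gave from 2 to 14 higher and from 0 to 3 lower among the 42 genes, with a median from 0.095 to 0.14. All genes ran from 1374 to 2955 higher and from 848 to 2625 lower. The other ribosome biogenesis genes ran from 0 to 18 higher and from 4 to 15 lower, with a median from -0.023 to 0.012. These fits have fewer samples by construction; why the lowest counts came without a MIZ-1 WT library was not tested.

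Log2 fold changes of single genes that turned sign were all of genes not called. With library totals alone, upper quartile factors and the 30 RPM filter, *Utp15* had 0.046, 0.011 and 0.062, and *Max* 0.050, 0.014 and 0.066. With library totals alone and the 30 RPM filter, *Rrp9* had 0.034 and 0.050, and *Noc3l* 0.017 and 0.033. Removal of the GC and length trend gave -0.049 for *Polr1c*, -0.0086 for *Rrn3*, -0.044 for *Noc4l* and -0.025 for *Pes1*. Leaving out 1 library, *Polr1c* ran from -0.019 to 0.10, *Rrn3* from -0.0056 to 0.089, *Ncl* from -0.022 to 0.15, *Npm3* from -0.0445 to 0.10, *Gar1* from -0.0061 to 0.059, *Rrp9* from -0.0755 to 0.041, *Utp15* from -0.018 to 0.016, *Noc4l* from -0.070 to 0.090, *Noc3l* from -0.072 to 0.013 and *Max* from -0.015 to 0.011. Over single genes and the alternatives with a test, 611 values kept direction and side of the threshold, 65 were no longer past it, 24 newly passed it and 23 turned sign. Removal of the GC and length trend, which has no test, turned 4 signs and moved 19 further values: *Taf1d* to 0.41, *Ncl* 0.14, *Nolc1* 0.053, *Nop56* -0.26, *Nop58* 0.35, *Nop14* -0.23, *Nop16* 0.076, *Wdr12* 0.28, *Gtpbp4* 0.135, *Pa2g4* 0.17, *Ebna1bp2* -0.21, *Tsr1* 0.19, *Rcl1* 0.26, *Max* -0.079, *Mga* -0.047, *Mlx* -0.31, *Tfrc* -0.18, *Rplp0* 0.51 and *Rpl22* -1.11.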
